A study of Mus musculus with 12 samples.

Results

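The clustered histone genes were described in poly(A)-selected RNA of brain and spleen from *Norad*-/- and *Norad*+/+ mice. They were taken as every gene whose symbol begins with *Hist1h*, *Hist2h*, *Hist3h* or *Hist4h*, which gave 68 of the 24062 genes in the expression tables. By the histone they encode, 6 were H1, 18 were H2A, 19 were H2B, 12 were H3 and 13 were H4 genes. The *Hist1* cluster on chromosome 13 held 54 of them, the *Hist2* cluster on chromosome 3 held 10, the *Hist3* cluster on chromosome 11 held 3, and *Hist4h4* stood alone on chromosome 6. All but 1 are protein coding, and *Hist3h2bb-ps* is a processed pseudogene. Each tissue had 3 *Norad*-/- and 3 *Norad*+/+ libraries, all from C57BL/6 males of 10 weeks, and *Norad* had been deleted from the germline by CRISPR/Cas9 editing. The sample labels do not name the founder line of the mutants. RNA was selected for its poly(A) tail and read as stranded single reads of 75 bases, and the values used are FPKM, fragment counts scaled by the length of the gene model and by the depth of the library.

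Clustered histone genes supply the histones that package newly copied DNA, and they are transcribed chiefly while a cell copies its genome. Their messages are unusual in that most end just after a short RNA hairpin, the histone stem-loop, which is bound by the stem-loop binding protein SLBP and takes the place of a poly(A) tail. Some of the same genes also give longer, polyadenylated transcripts, which are known from differentiated cells, and poly(A) selection retains these while it discards transcripts that end at the hairpin.

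Depth, estimated from the smallest steps between low values, was 33.4 to 35.2 M reads for *Norad*-/- brain, 28.6 to 36.8 M for *Norad*+/+ brain, 32.6 to 35.2 M for *Norad*-/- spleen, and 31.4 to 33.2 M for *Norad*+/+ spleen. *Norad* itself was at most 0.0121 FPKM in *Norad*-/- brain, against at least 206 FPKM in *Norad*+/+ brain, and at most 0.0173 FPKM in *Norad*-/- spleen, against at least 42.9 FPKM in *Norad*+/+ spleen. Brain libraries carried markers of neurons (summed level 1948 to 2164 FPKM in *Norad*-/- and 1965 to 2399 FPKM in *Norad*+/+) and spleen libraries those of B cells (2025 to 2284 FPKM in *Norad*-/- and 1757 to 2199 FPKM in *Norad*+/+). *Norad*+/+ spleen replicate 3 stood apart, with 351 FPKM over a list of pancreas genes and 118 FPKM over a list of liver genes, against at most 0.386 and 0.612 FPKM in the other 5 spleen libraries. *Norad*-/- brain replicate 3 held 1338 FPKM over a list of pituitary genes, against at most 1.48 FPKM in the other 5 brain libraries, and *Norad*+/+ brain replicate 3 had the lowest median correlation with the rest of its tissue (Spearman's rho 0.949, against 0.973 to 0.979).

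The 3′ ends of the members are shown first, because the end of a histone message decides whether poly(A) selection can retain it. The annotated transcripts (GENCODE M21, build GRCm38) were searched on their own strand, downstream of the stop codon, for a run of 16 bases that starts with GG, ends with CC and folds into a stem of 6 base pairs around a loop of 4 bases. A fully paired stem-loop was present in the longest coding transcript of 45 members, 21 to 58 bases after the stop codon. Only the first 80 bases after the stop codon were compared with other genes, and there the motif was found in 87.5% of 40 members with a 3′ UTR of that length, against 0.244% of 20053 other coding genes. The 16 bases took 8 forms, of which 1 was shared by 25 members of classes H1, H2A, H2B and H3, and another by 7 H4 genes. The stem-loops of the members with the highest levels are given below with 5 bases on either side, written 5′ to 3′, with the 16 bases in capitals. *Hist1h2bf*, chosen after its values were seen, is added because it was at 0 FPKM in all 12 libraries.
Hist3h2a, chr11:58955172-58955187, plus strand: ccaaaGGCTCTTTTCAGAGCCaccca
Hist1h1c, chr13:23739512-23739527, plus strand: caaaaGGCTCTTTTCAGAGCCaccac
Hist3h2ba, chr11:58949349-58949364, plus strand: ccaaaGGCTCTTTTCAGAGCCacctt
Hist1h2be, chr13:23585531-23585546, minus strand: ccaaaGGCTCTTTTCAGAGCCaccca
Hist1h1e, chr13:23621782-23621797, minus strand: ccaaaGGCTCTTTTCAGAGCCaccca
Hist1h3d, chr13:23576244-23576259, plus strand: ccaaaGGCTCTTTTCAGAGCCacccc
Hist1h4d, chr13:23581950-23581965, plus strand: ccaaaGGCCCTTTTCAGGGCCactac
Hist1h4i, chr13:22040966-22040981, minus strand: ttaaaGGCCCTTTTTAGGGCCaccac
Hist2h4, chr3:96262939-96262954, minus strand: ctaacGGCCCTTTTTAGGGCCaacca
Hist1h2bf, chr13:23573765-23573780, minus strand: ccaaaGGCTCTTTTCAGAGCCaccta
*Hist3h2a* and *Hist1h2bf* thus carry the same 16 bases, yet *Hist3h2a* was the member with the second highest level in both tissues. Their annotated transcripts differ beyond the hairpin, with 1643 further bases in *Hist3h2a* and 29 in *Hist1h2bf*. *Hist1h1d* and *Hist1h2ac* carry the same 16 bases too, with 4884 and 2010 further bases. Their means were 0.0524 and 0.0212 FPKM in brain and 0.116 and 0.0101 FPKM in spleen. The part of transcript length in these levels was not tested. *Hist1h2bc* and *Hist2h2be*, the H2B genes with the highest levels, had no such run in their annotated transcripts, and neither did *Hist2h2bb* or *Hist1h2af*. The annotated transcripts of *Hist2h2bb* and *Hist1h2af* end 0 and 1 bases after the stop codon, so the search could not have found one there.

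A poly(A) signal, searched as AATAAA or ATTAAA in the last 40 bases of the transcript on its own strand, was present in 17 of 67 members with a coding model (25.4%), against 70.8% of 21610 other coding genes. The models of 22 members end within 100 bases after the stem-loop, and those of 17 more within 100 bases of the stop codon. A signal beyond such a model could not be found, so the share depends on where the models stop. The sites of 3 of the 4 members with the highest levels are shown with the signal in capitals.
Hist3h2a, chr11:58956797-58956802, plus strand: gtatatgcccAATAAAataagagtac
Hist1h1c, chr13:23740342-23740347, plus strand: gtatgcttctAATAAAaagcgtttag
Hist2h2be, chr3:96223717-96223722, plus strand: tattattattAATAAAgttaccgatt
*Hist1h2bc*, the fourth of them, had neither hexamer in the last 40 bases of its annotated transcript, which spans 2 exons. A match is a run of letters in an annotated transcript and does not show that the site was used in these tissues.

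Most clustered histone genes were near or at 0 in this poly(A) RNA, and 4 of them made up nearly all of the signal. *Hist1h2bc* (H2B), *Hist3h2a* (H2A), *Hist1h1c* (H1) and *Hist2h2be* (H2B) together held 93.2% of the members' summed FPKM in brain and 89.7% in spleen, and *Hist1h2bc* alone held 63.6% and 42.5%. In brain 6 members reached a mean of 1 FPKM over the 6 libraries (8.82% of the members, against 54.2% of all genes), 10 lay between 0.1 and 1 FPKM, and 52 lay below 0.1 FPKM. In spleen the same counts were 5 (7.35%, against 51.5% of all genes), 16 and 47. All libraries of the tissue were at 0 FPKM for 22 members in brain and for 6 in spleen. The 5 at 0 FPKM in all 12 libraries were *Hist1h2aa*, *Hist1h2ao*, *Hist1h2ap*, *Hist1h2ba* and *Hist1h2bf*. *Hist1h2aa* and *Hist1h2ba* encode histones of the testis. The median over the 68 member means was 0.0303 FPKM in brain and 0.0457 FPKM in spleen. By class, H2B genes held 71.9% of the members' summed FPKM in brain and 56.7% in spleen, H2A genes 18.3% and 20%, H1 genes 7.95% and 17.1%, and H4 genes 1.3% and 5.49%. H3 genes held only 0.589% and 0.703%, so the core histones were far from equally represented. Brain and spleen values come from separate tables and were not tested against each other.

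**Figure D1:**
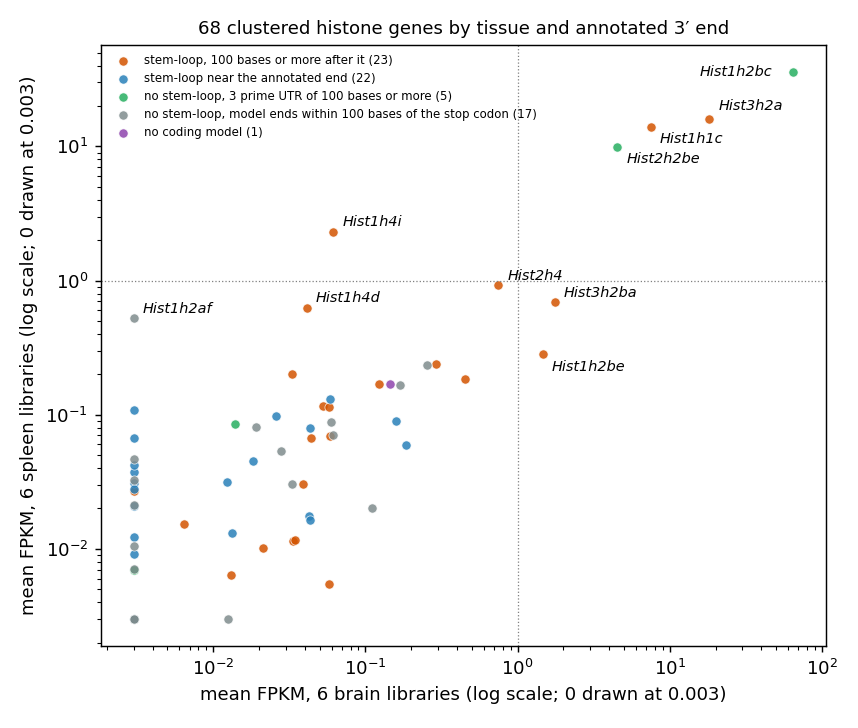
Mean FPKM of the 68 clustered histone genes in the 6 brain libraries (horizontal, log scale) and the 6 spleen libraries (vertical, log scale), with values of 0 drawn at 0.003, colours for the annotated 3′ end and dotted lines at 1 FPKM. *Hist1h2bc*, *Hist3h2a*, *Hist1h1c* and *Hist2h2be* lie above 1 FPKM in both tissues, while *Hist1h4i* lies above it only in spleen and *Hist3h2ba* and *Hist1h2be* only in brain.

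The members with a mean above 1 FPKM were found in the groups whose annotated transcript runs on past the stop codon or the stem-loop. Of 23 members with a stem-loop and at least 100 annotated bases after it, 4 in brain and 3 in spleen reached 1 FPKM, namely *Hist3h2a* and *Hist1h1c* in both tissues, *Hist3h2ba* and *Hist1h2be* in brain, and *Hist1h4i* in spleen. Of 22 members whose model ends within 100 bases of the stem-loop, 0 reached 1 FPKM in either tissue, and their highest means were 0.184 FPKM in brain (*Hist1h2ad*) and 0.13 FPKM in spleen (*Hist1h2bb*). Of 5 members with a 3′ UTR of at least 100 bases and no fully paired stem-loop in the transcript used, 2 reached 1 FPKM in both tissues, *Hist1h2bc* and *Hist2h2be*. Of the rest, *Hist1h2bp* has a fully paired stem-loop in another annotated transcript. *Hist1h2bq* and *Hist1h2br* have one when 1 unpaired position is allowed. Of 17 members whose model ends within 100 bases of the stop codon with no stem-loop found, 0 reached a mean of 1 FPKM in either tissue. Their highest means were 0.253 FPKM in brain (*Hist2h2bb*) and 0.524 FPKM in spleen (*Hist1h2af*). Most of these 17 models end within 2 bases of the stop codon, so a stem-loop further on could not be found. A long annotated end did not by itself go with a high level: the median of the 23 long models was 0.0575 FPKM in brain and 0.116 FPKM in spleen, against 0 and 0.0314 FPKM for the 22 short ones. The boundary of 100 bases was set after the levels were known, so these counts are a description and carry no test.

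**Figure D2:**
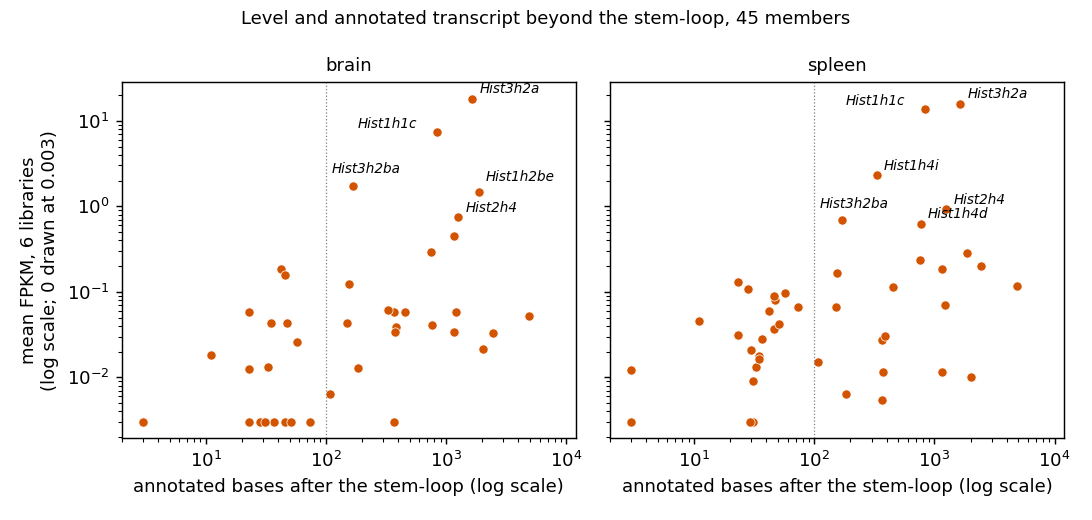
Mean FPKM over 6 libraries (vertical, log scale, 0 drawn at 0.003) against the annotated bases after the stem-loop (horizontal, log scale) for the 45 members with a fully paired stem-loop, in brain and in spleen, with a dotted line at 100 bases. All members above 1 FPKM lie to the right of the line, where many others remain below 0.1 FPKM.

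The length that the deposited values were divided by bears on these levels. Of 96 member values up to 0.25 FPKM, 42.7% came to whole reads (within 0.05 of a read) when scaled by the RefSeq gene length and 9.4% when scaled by the GENCODE transcript length. These values are from single-exon members whose GENCODE transcript is longer than the RefSeq gene. The depth used had itself been estimated with RefSeq lengths, which favours RefSeq here, so the comparison cannot settle which length was used. RefSeq models of many members stop near the stem-loop (508 bases for *Hist3h2a*, against 2146 in GENCODE), and reads beyond such a model would not be counted in it. Runs of 75 bases that a member shares with another annotated gene, either a copy elsewhere or a gene that overlaps it, were counted as well, since a read of such a run may not be placed in a single gene. Of 31 members with at least 50% of their runs shared, 0 reached a mean of 1 FPKM in a tissue and 3 were at 0 in all 12 libraries. Of 37 members below that share, 7 reached such a mean and 2 were at 0 in all 12 libraries. *Hist1h2bq* and *Hist1h2br* had identical values in the 3 libraries where they were above 0, and *Hist2h3c1* and *Hist2h3c2* kept a ratio of 1.02 in 9 libraries, so the members of each pair cannot be told apart. All runs of *Hist1h2bq* are shared and it was still above 0 in those libraries. The part of shared sequence in the low levels was not tested. The shared part was 27.1% for *Hist1h2bc*, 30.6% for *Hist3h2a*, 6.7% for *Hist1h1c* and 0% for *Hist2h2be*. For *Hist1h2bf*, shown above beside *Hist3h2a*, it was 56.6%.

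In brain the comparison of genotypes asked whether the polyadenylated histone transcripts differ without *Norad*, and 0 of the 6 members that reached a mean of 1 FPKM passed limma at an adjusted p of 0.05, where 0.0153% of 13051 genes passed. At an unadjusted p of 0.05, 2 of the 6 members had log2 fold changes below 0, *Hist3h2a* and *Hist3h2ba*, and 0 above, against 6.62% of all genes in either direction. The log2 fold changes of *Norad*-/- over *Norad*+/+ were below 0 for 5 of the 6, with a median of -0.45, against 0.02 over all genes tested. Linker histone H1 binds the DNA between nucleosomes, and its 1 member here was the exception. *Hist1h1c* (chr13:23738808-23740367), which encodes the linker histone H1.2, had 6.9, 9.26 and 9.94 FPKM in *Norad*-/- brain, against 5.11, 4.39 and 9.3 FPKM in *Norad*+/+ brain. *Norad*+/+ replicate 3 lay within the *Norad*-/- values and the groups overlapped, with a log2 fold change of 0.53 (SE 0.30, adjusted p = 0.718 from limma). It was 0.846 without *Norad*+/+ replicate 3 and 0.313 without *Norad*+/+ replicate 2. *Hist1h1e*, which encodes H1.4, was below the filter, at 0.268, 0.313 and 0.475 FPKM in *Norad*-/- brain, against 0.729, 0.565 and 0.373 FPKM in *Norad*+/+ brain, again with overlap.

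H2A and H2B pair as a dimer in the nucleosome core, and their members carried most of the signal in brain. *Hist3h2a* (chr11:58954685-58956830), an H2A gene that overlaps *Trim17*, had 13.1, 16.1 and 16.9 FPKM in *Norad*-/- brain, against 21.5, 20 and 21.4 FPKM in *Norad*+/+ brain. All *Norad*-/- libraries lay below all *Norad*+/+ libraries, at 15.4 ± 1.97 against 21 ± 0.825 FPKM (SD, n = 3 each), and the log2 fold change was -0.45 (SE 0.12, unadjusted p = 0.00874, adjusted p = 0.659 from limma). *Hist3h2ba* (chr11:58948920-58949533), its H2B neighbour in the *Hist3* cluster, had 1.36, 1.08 and 1.14 FPKM in *Norad*-/- brain, against 3.05, 1.4 and 2.45 FPKM in *Norad*+/+ brain. Its groups did not overlap either, though *Norad*+/+ replicate 2 was only just above *Norad*-/- replicate 1, and the log2 fold change was -0.83 (SE 0.28, unadjusted p = 0.0241, adjusted p = 0.71 from limma). With 1 library left out, *Hist3h2a* kept an unadjusted p under 0.05 in all 6 fits, whereas *Hist3h2ba* lost it in 4 of 6, those without *Norad*-/- replicate 2 or 3 or *Norad*+/+ replicate 1 or 3. These were the 2 of 6 members whose *Norad*-/- values all lay below, against 6.56% of all genes tested, and 0 of 6 had all *Norad*-/- values above, against 10.6% of all genes. *Hist1h2bc* (chr13:23684199-23692908), the H2B gene with the highest level, had 30.3, 70.4 and 33.8 FPKM in *Norad*-/- brain, against 45.7, 89.8 and 118 FPKM in *Norad*+/+ brain. It varied more than 2-fold within each genotype and the groups overlapped through *Norad*-/- replicate 2, with a log2 fold change of -0.91 (SE 0.45, adjusted p = 0.718 from limma). *Hist2h2be* (chr3:96221119-96223738) had 3.32, 2.84 and 5.33 FPKM in *Norad*-/- brain, against 3.71, 5.15 and 6.78 FPKM in *Norad*+/+ brain, and *Hist1h2be* had 1.21, 0.993 and 1.56 FPKM, against 1.46, 2.03 and 1.53 FPKM. Both H2B genes overlapped between genotypes, with log2 fold changes of -0.44 for *Hist2h2be* (SE 0.30, adjusted p = 0.728) and -0.40 for *Hist1h2be* (SE 0.21, adjusted p = 0.718, both from limma). That of *Hist2h2be* was -0.702 without *Norad*-/- replicate 3, -0.261 without *Norad*-/- replicate 2 and -0.238 without *Norad*+/+ replicate 3, and that of *Hist1h2be* was -0.255 without *Norad*-/- replicate 2 and -0.257 without *Norad*+/+ replicate 2. *Hist2h2bb*, an H2B gene whose 75-base runs are all shared with other genes, had 0.147, 0.36 and 0.245 FPKM in *Norad*-/- brain, against 0.322, 0.302 and 0.145 FPKM in *Norad*+/+ brain.

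H3 and H4 form the tetramer at the centre of the nucleosome, and no H3 or H4 gene reached a mean of 1 FPKM over the brain libraries. *Hist2h4*, the H4 gene with the highest level there, had 0.427, 0.661 and 0.472 FPKM in *Norad*-/- brain, against 1.09, 1.37 and 0.458 FPKM in *Norad*+/+ brain. *Norad*+/+ replicate 3 lay among the *Norad*-/- values. *Hist1h3d*, the H3 gene with the highest level, had 0.13, 0.118 and 0.326 FPKM in *Norad*-/- brain, against 0.395, 0.529 and 0.26 FPKM in *Norad*+/+ brain, and the groups overlapped. At the estimated depth these values stand for about 5.03 to 19.3 reads of *Hist2h4* and 2.09 to 9.82 reads of *Hist1h3d* per library, taking the RefSeq length. Over all 68 members, counted whatever their level, *Norad*-/- brain lay wholly below for 5 and wholly above for 1, against 4.72% and 7.83% of all 24062 genes counted in the same way. Of these, *Hist1h2ac* and *Hist1h4d* were at 0 in the 3 *Norad*-/- libraries. In the *Norad*+/+ libraries *Hist1h4d* was at about 1 read each and *Hist1h2ac* at no more than about 0.988 reads. *Hist1h4h* was at no more than about 4.29 reads, and *Hist1h2ae*, the one wholly above, at no more than about 1.99 reads. *Hist3h2a* and *Hist3h2ba* were the other members wholly below.

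**Figure D3:**
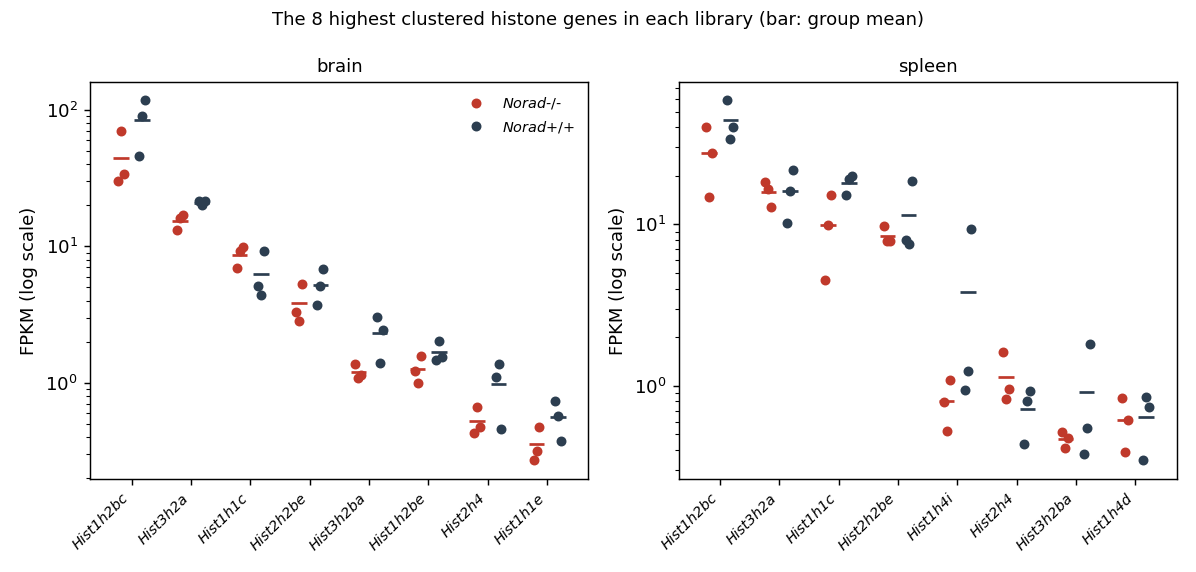
FPKM (log scale) of the 8 clustered histone genes with the highest mean in brain and in spleen, with 1 point per library, *Norad*-/- at the left and *Norad*+/+ at the right of each gene and a bar at each group mean. In brain the groups are separate for *Hist3h2a* and *Hist3h2ba*, and in spleen they overlap for all 8 genes, with *Norad*+/+ replicate 3 high for *Hist1h4i* at 9.32 FPKM.

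In spleen 0 of 5 members tested passed limma at an adjusted p of 0.05, where 0.0323% of 12397 genes passed. At an unadjusted p of 0.05, 0 of the 5 members passed, against 21% of all genes, and 0 had groups that did not overlap, against 14.9% of all genes with *Norad*-/- below and 11.6% with *Norad*-/- above. The log2 fold change was below 0 for 4 of the 5, with a median of -0.76, against -0.02 over all genes tested. Without *Norad*+/+ replicate 3 *Hist1h4i* fell below the filter. Of the 4 members then tested 2 were below 0 and 2 above, with a median of -0.349. Without *Norad*-/- replicate 2 the median was -0.369. In such bulk tissue, fewer cells of a type and less RNA per cell cannot be told apart.

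*Hist1h1c*, the linker histone gene, came closest to the threshold in spleen. It had 4.54, 9.94 and 15.1 FPKM in *Norad*-/- spleen, against 15.1, 19.2 and 19.8 FPKM in *Norad*+/+ spleen. *Norad*-/- replicates 1 and 2 lay below every *Norad*+/+ library, *Norad*-/- replicate 3 was just above the lowest of them, and the log2 fold change was -1.01 (SE 0.42, unadjusted p = 0.0501, adjusted p = 0.239 from limma). Without *Norad*-/- replicate 1 it was -0.542 and without *Norad*-/- replicate 3 it was -1.4. *Hist3h2a*, the H2A gene, had 18.3, 16.5 and 12.8 FPKM in *Norad*-/- spleen, against 10.2, 16.2 and 21.6 FPKM in *Norad*+/+ spleen. The *Norad*+/+ values enclosed the *Norad*-/- ones and the log2 fold change was 0.04 (SE 0.29, adjusted p = 0.949), a direction that turned to -0.252 without *Norad*+/+ replicate 1 and to -0.0701 without *Norad*-/- replicate 1. *Hist1h2af*, another H2A gene, had 0.0654, 0.0606 and 0.602 FPKM in *Norad*-/- spleen, against 0, 0.263 and 2.15 FPKM in *Norad*+/+ spleen. Its highest value was that of *Norad*+/+ replicate 3, and 86.8% of its 75-base runs are shared with other genes.

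Among the H2B genes, *Hist1h2bc* had 40.4, 14.7 and 27.6 FPKM in *Norad*-/- spleen, against 58.7, 34 and 40.1 FPKM in *Norad*+/+ spleen. *Norad*-/- replicate 1 exceeded *Norad*+/+ replicates 2 and 3, so the groups overlapped, and the log2 fold change was -0.76 (SE 0.39, adjusted p = 0.311 from limma). Without *Norad*-/- replicate 2 it was -0.369. *Hist2h2be* had 9.74, 7.91 and 7.85 FPKM in *Norad*-/- spleen, against 8.05, 7.53 and 18.7 FPKM in *Norad*+/+ spleen. Only *Norad*+/+ replicate 3 stood above the rest, and the log2 fold change of -0.30 (SE 0.35, adjusted p = 0.651) turned to 0.118 without it. *Hist3h2ba* was likewise highest in that library, with 0.513, 0.414 and 0.475 FPKM in *Norad*-/- spleen, against 0.377, 0.545 and 1.81 FPKM in *Norad*+/+ spleen. *Hist1h2be* had 0.226, 0.275 and 0.249 FPKM in *Norad*-/- spleen, against 0.217, 0.28 and 0.443 FPKM in *Norad*+/+ spleen, with overlapping groups.

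Among the H4 genes, *Hist1h4i* (chr13:22040636-22041362) had 0.797, 0.523 and 1.09 FPKM in *Norad*-/- spleen, against 0.945, 1.23 and 9.32 FPKM in *Norad*+/+ spleen. About 125 reads of it were present in *Norad*+/+ replicate 3, the library with pancreas and liver genes, and without that library its mean fell below the filter. The log2 fold change over all 6 libraries was -1.43 (SE 0.84, adjusted p = 0.367 from limma). *Hist2h4* had 1.62, 0.823 and 0.952 FPKM in *Norad*-/- spleen, against 0.433, 0.801 and 0.926 FPKM in *Norad*+/+ spleen, and *Hist1h4d* had 0.843, 0.391 and 0.615 FPKM, against 0.344, 0.847 and 0.734 FPKM. Both overlapped between genotypes. *Hist1h4d* was thus detected in every spleen library, whereas in brain it reached no more than 0.0956 FPKM. Over all 68 members, *Norad*-/- spleen lay wholly below for 2, *Hist1h2bb* and *Hist2h3b*, at no more than about 5.98 and 0.983 reads per library, and wholly above for 0, against 10.7% and 7.4% of all 24062 genes. The part of the pancreas and liver genes in the values of *Norad*+/+ replicate 3 was not tested.

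The genotype effect was compared between tissues as spleen change minus brain change over 10481 genes whose mean reached 1 FPKM in both, which included 4 members. By limma 0 of the 4 passed at an adjusted p of 0.05, against 0.0191% of all genes, and 1 passed at an unadjusted p of 0.05, against 14.3% of all genes. That member was *Hist1h1c*, whose change was lower in spleen by a difference of -1.54 on the log2 scale (SE 0.55, unadjusted p = 0.0185, adjusted p = 0.269). The difference was 0.15 (SE 0.65) for *Hist1h2bc*, 0.14 (SE 0.50) for *Hist2h2be* and 0.49 (SE 0.33) for *Hist3h2a*, of which the first 2 changed sign when single libraries were left out. *Hist2h4* was below the filter and differed by 1.28 (SE 0.54, unadjusted p = 0.0386, adjusted p = 0.317) when genes from 0.1 FPKM in both tissues were admitted.

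Dividing cells are the main site of histone gene transcription, and the genes of DNA replication and mitosis were counted beside them. Of 31 S-phase genes tested in spleen 31 had a log2 fold change below 0 (median -1.02) and 26 had an unadjusted p under 0.05, against 21% of all genes, and of 15 mitosis genes 15 were below 0 (median -1.42) and 14 had such a p, while 0 of either list passed the adjusted p of limma. Their summed levels were 339, 351 and 544 FPKM (S phase) and 102, 96.6 and 305 FPKM (mitosis) in *Norad*-/- spleen, against 536, 835 and 1134 FPKM and 234, 484 and 639 FPKM in *Norad*+/+ spleen. *Norad*-/- replicate 3 was the highest of its genotype in both sums, and *Norad*+/+ replicate 1 was the lowest of its own. Among the members tested in spleen, *Hist1h1c* and *Hist1h4i* had these same extremes. In *Hist1h2bc*, *Hist3h2a* and *Hist2h2be*, *Norad*-/- replicate 1 was instead the highest of its genotype. *Pole*, the catalytic subunit of DNA polymerase epsilon, had a log2 fold change of -1.08 (SE 0.19, adjusted p = 0.141), *Lig1*, which joins Okazaki fragments, of -1.71 (SE 0.34, adjusted p = 0.141), and *Mcm5*, a subunit of the replicative helicase, of -1.29 (SE 0.27, adjusted p = 0.152, all from limma). *Bub1b*, of the spindle checkpoint, had -0.92 (SE 0.22, adjusted p = 0.159). The sums of red cell precursor genes were 105, 81.6 and 1354 FPKM in *Norad*-/- spleen, against 1019, 2561 and 3453 FPKM in *Norad*+/+ spleen, and 18 of 18 of these genes were below 0 (median -3.67), none of them at 0 FPKM in all libraries. Neutrophil genes were below 0 for 8 of 8 (sums 167 to 1523 FPKM in *Norad*-/- and 865 to 2471 FPKM in *Norad*+/+), 3 of them at an unadjusted p under 0.05 by limma. T cell genes were above 0 for 9 of 9 (sums 450 to 537 FPKM in *Norad*-/- and 318 to 353 FPKM in *Norad*+/+), 9 of them at such a p, against 21% of all genes. Also below 0 were 8 of 8 macrophage genes (6 at such a p) and 6 of 6 megakaryocyte genes (1). B cell genes were above 0 for 9 of 9 (2) and plasma cell genes for 5 of 6 (2). The part of cell composition in the spleen values of *Hist1h1c* and *Hist1h2bc* was not tested. The members' own sum was 79.7, 53 and 70.3 FPKM in *Norad*-/- spleen, against 96.8, 85.6 and 121 FPKM in *Norad*+/+ spleen. Every *Norad*-/- library thus lay below every *Norad*+/+ library. Unlike in the S-phase and mitosis sums, *Norad*-/- replicate 1 was the highest of its genotype and *Norad*+/+ replicate 2 the lowest of its own. *Hist1h2bc* held 42.5% of the members' summed FPKM in spleen. Without it the sum was 39.4, 38.4 and 42.7 FPKM, against 38, 51.5 and 81.1 FPKM, and the groups overlapped.

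**Figure D4:**
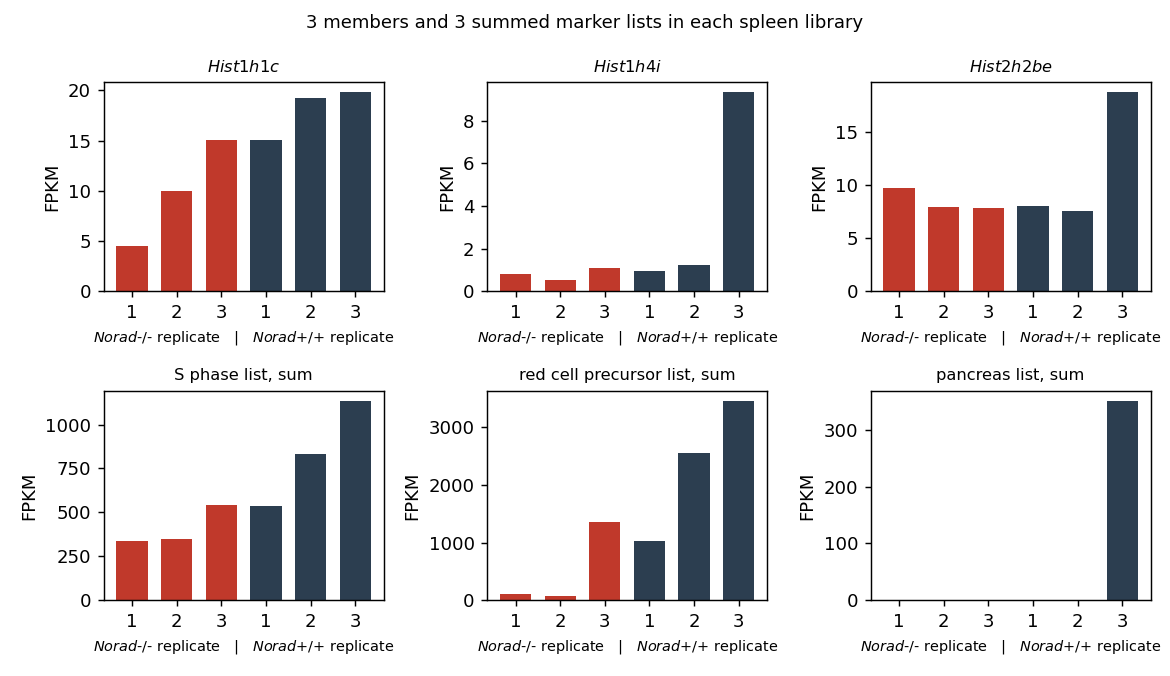
FPKM of *Hist1h1c*, *Hist1h4i* and *Hist2h2be* (upper row) and summed FPKM of the S-phase, red cell precursor and pancreas lists (lower row) in each spleen library, with bars for *Norad*-/- replicates 1 to 3 at the left and *Norad*+/+ replicates 1 to 3 at the right. *Norad*-/- replicate 3 is the highest of its genotype for *Hist1h1c* and for the S-phase and red cell precursor sums, and *Norad*+/+ replicate 3 is the highest library in all 6 panels. *Hist1h2bc*, which is not drawn here, is highest in *Norad*+/+ replicate 1 (58.7 FPKM, against 40.1 FPKM in *Norad*+/+ replicate 3).

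In brain 20 of the 31 S-phase genes were tested (median 0.06). Of these, 0 had an unadjusted p under 0.05 by limma, against 6.62% of all genes, a share at which few of 20 would be called. Of the 15 mitosis genes 0 reached the filter. The sums were 68.3, 72.4 and 78.2 FPKM (S phase) and 5.62, 5.49 and 6.13 FPKM (mitosis) in *Norad*-/- brain, against 65.6, 72.1 and 72.9 FPKM and 4.61, 5.72 and 5.99 FPKM in *Norad*+/+ brain. The members' own sum was 58.9, 103 and 72.2 FPKM in *Norad*-/- brain, against 85.5, 127 and 163 FPKM in *Norad*+/+ brain, and without *Hist1h2bc* it was 28.6, 33 and 38.4 FPKM, against 39.8, 37.6 and 44.9 FPKM. The groups overlapped in both sums.

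The histone variants are encoded outside the clusters, and most of them give polyadenylated messages. Their summed FPKM exceeded that of the clustered members in all 12 libraries, by 1.37-fold (*Norad*+/+ replicate 3) to 3.22-fold (*Norad*-/- replicate 3) in brain and by 3.78-fold to 5.83-fold in spleen. The 11 listed variants summed to 173 to 232 FPKM in *Norad*-/- brain and 200 to 223 FPKM in *Norad*+/+ brain, and to 301 to 319 FPKM in *Norad*-/- spleen and 354 to 506 FPKM in *Norad*+/+ spleen. Of these, 9 were tested in brain (median 0.04) and 10 in spleen (median -0.29), and 0 passed the adjusted p of limma in either tissue. In brain 2 of the 9 tested had an unadjusted p under 0.05, against 6.62% of all genes, both with log2 fold changes below 0. *H2afx*, the variant phosphorylated at DNA breaks, had 7.91, 9.86 and 9.92 FPKM in *Norad*-/- brain, against 18.7, 12.1 and 23.2 FPKM in *Norad*+/+ brain (log2 fold change -0.92, SE 0.25, adjusted p = 0.659). *H1fx*, a linker histone variant, had 10.3, 7.63 and 15.6 FPKM, against 18.3, 20.9 and 21.5 FPKM (log2 fold change -0.91, SE 0.26, adjusted p = 0.69). Both were singled out after their values were seen. All *Norad*-/- values of both lay below the *Norad*+/+ ones, as they did for 6.56% of all genes tested in brain. In spleen 3 of the 10 tested had an unadjusted p under 0.05, against 21% of all genes, all with log2 fold changes below 0. *H3f3b*, a gene of the replacement histone H3.3, had 128, 133 and 132 FPKM in *Norad*-/- spleen, against 284, 151 and 231 FPKM in *Norad*+/+ spleen (log2 fold change -0.71, SE 0.23, adjusted p = 0.187). *Cenpa*, the H3 variant of centromeres, had a log2 fold change of -1.06 (SE 0.37, adjusted p = 0.198), and *H1f0*, a linker histone of resting cells, of -0.54 (SE 0.19, adjusted p = 0.204).

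The factors that make and process histone messages were counted in the same way. Of 17 such genes 16 were tested in each tissue, 0 passed the adjusted p of limma, and 1 in each had an unadjusted p under 0.05, against 6.62% of all genes in brain and 21% in spleen. *Slbp*, which encodes the stem-loop binding protein, had 7.32, 7.45 and 9.21 FPKM in *Norad*-/- brain, against 8.12, 8.04 and 14.5 FPKM in *Norad*+/+ brain (log2 fold change -0.30, SE 0.25, adjusted p = 0.762). In spleen *Slbp* had 25.2, 23 and 34.8 FPKM in *Norad*-/-, against 28.2, 46 and 66.5 FPKM in *Norad*+/+ (log2 fold change -0.70, SE 0.33, adjusted p = 0.276). It overlapped between genotypes in both tissues. In brain the 1 gene was *Lsm1*, of the cytoplasmic decapping complex, with 4.74, 4.2 and 5.03 FPKM in *Norad*-/-, against 5.03, 23.3 and 29.7 FPKM in *Norad*+/+ (log2 fold change -1.69, SE 0.64, adjusted p = 0.718). In spleen it was *Cstf2*, a subunit of the cleavage stimulation factor, with a log2 fold change of -0.22 (SE 0.07, adjusted p = 0.189). Of 23 histone chaperones, 0 of 20 tested in brain had an unadjusted p under 0.05, against 6.62% of all genes. In spleen 8 of 23 did, against 21% of all genes, with log2 fold changes below 0 (median over the list -0.25), and 0 passed the adjusted p. *Chaf1a* and *Chaf1b*, subunits of the complex that deposits new H3 and H4 at replication forks, had log2 fold changes of -1.34 (SE 0.36, adjusted p = 0.176) and -1.21 (SE 0.30, adjusted p = 0.165) there.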

How the data were processed

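RNA-seq of brain and spleen (3 *Norad*-/- and 3 *Norad*+/+ libraries each) was analysed. The authors filtered reads, aligned them to GRCm38 with TopHat2 2.0.12 and kept uniquely mapped reads, and the deposited values are FPKM. For these the submitters' processing notes name StringTie 1.2.2, besides featureCounts 1.4.6 and edgeR 3.8.6. The annotation behind the values is not given in the sources used here. Genes whose mean reached 1 FPKM over a tissue's 6 libraries were tested with limma 3.58.1 (R 4.3.3, variance trend) on log2(FPKM + 0.1), which understates changes of low genes, with Benjamini-Hochberg adjustment over all genes tested in the tissue. The difference between tissues was an interaction term over 12 libraries. Brain and spleen may come from the same mice, which the labels do not say, and the interaction then treats paired libraries as independent. Stem-loops were taken from the longest coding transcript of each gene, all 68 of which matched GENCODE M21 by symbol. Depth was estimated from FPKM steps of single-exon genes at their RefSeq lengths. Of their low values 21.7% to 29.5% were whole reads within 2%, so reads per gene are approximate. Genes named per library were the 10 members with the highest mean in each tissue and the 5 with the smallest p in each direction, and up to 4 genes of a list. The members and lists were chosen with earlier results of these data known. Tests were tried on simulated data. Python 3.11.15 was used with matplotlib 3.10.9, numpy 2.4.6 and pandas 2.3.3.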

Additional observations from a re-analysis of the deposited data

How the results depend on the processing

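In brain 0 members passed the adjusted p of limma under any of the 16 alternatives, and in the comparison of tissues 0 did under any of 17. In spleen 1 passed under 1 of 16, with array weights (*Hist1h1c* -1.35, adjusted p = 0.0163). The smallest adjusted p of any member under the other 15 was 0.0899, with the replicate block. Array weights are a setting that moved the calls over all genes to 119 in brain and 4730 in spleen. In 1 of these fits the estimate of the weights stopped before it converged. The number of members at an unadjusted p under 0.05 in brain, 2 as reported, was 7 without a filter, 1 from 5 FPKM and 4 with array weights. In spleen, 0 as reported, it was 1 with a pseudocount of 1, 2 from 0.1 FPKM, 2 without a filter, 1 with array weights, and 0 to 1 with 1 library left out. Between tissues, 1 as reported, it was 2 from 0.1 FPKM and 1 to 2 with 1 library left out. The median log2 fold change of the members tested was -0.19 in brain and -0.21 in spleen without a filter, where more members near 0 enter, and in spleen -0.359 with array weights and -0.933 to -0.349 with 1 library left out. The direction of *Hist2h2be* in spleen turned with array weights (0.19), and with 1 library left out its log2 fold change ran from -0.535 to 0.118 and that of *Hist3h2a* from -0.252 to 0.288. The difference between tissues then ran from -0.183 to 0.545 for *Hist1h2bc* and from -0.0904 to 0.562 for *Hist2h2be*. The cause of these shifts was not tested.

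Whether the replicate numbers pair the samples was not settled by the values. In brain, deviations from the group means correlated at 0.061, 0.0684 and 0.11 for equal numbers, against -0.092 to 0.0402 for unequal numbers. In spleen they correlated at 0.338, -0.147 and 0.29 for equal numbers, against -0.477 to 0.36 for unequal numbers. With the replicate block 2 spleen members (*Hist1h1c* and *Hist1h2bc*) had an unadjusted p under 0.05, and 0 passed the adjusted p. Rescaling to TPM moved the median of all spleen genes to 0.10, against -0.02 as reported, and kept every member's direction. A stem-loop was found in 47 members when 1 unpaired position was allowed and in 45 when all positions had to pair. With all positions paired it was found in 46 when every annotated transcript of a gene was searched. No genome sequence was used here, so the 100 bases after each gene's end, a planned extension, were not searched. Limits of depth apply to the members below 0.1 FPKM, 52 in brain and 47 in spleen, which rest on a few reads or none. Without a filter the smallest adjusted p among all brain members was 0.173, for *Hist1h4d*, which had about 1 read per *Norad*+/+ library.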
